A study of Rattus norvegicus with 39 samples.

Results

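The genes described here are Stx2, Stx6 and Vamp4, which encode members of the SNARE family of membrane fusion proteins. They were taken from the count table by the Ensembl identifiers that the study pairs with these symbols (ENSRNOG00000000936, ENSRNOG00000003402 and ENSRNOG00000003071), so the set is 3 of 23978 genes. All 3 passed the filter on low counts in each comparison. They were followed across 39 libraries of polyribosome-bound mRNA from the nucleus accumbens (NAc) of female Long Evans rats, 1 library per rat.

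The rats were heterozygous for Cre in cells that express the dopamine receptor D1 (D1-Cre) or D2 (D2-Cre), and an AAV injected into the NAc carried a Cre-dependent, HA-tagged ribosomal protein (RiboTag). Immunoprecipitation (IP) of the tag enriches, but does not purify, the mRNA being translated in D1- or D2-expressing medium spiny neurons (MSNs). Rats in proestrus or diestrus received 6 injections of saline (0 mg/kg ketamine) or of racemic ketamine at 10 mg/kg, spaced to fall on the same cycle stage. All were returned to the test context 4 days after the last session and killed 30 min later, with no drug on that day. The 8 groups hold 5 libraries each, except the ketamine-treated proestrus D2 group, which holds 4. The ketamine-treated rats had been selected for an increase in locomotor activity over the sessions and the saline-treated rats had not, so ketamine and this selection cannot be told apart. Input RNA from the same punches is not used here.

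SNAREs sit on vesicles and on their target membranes, and the pairing of their helices pulls the membranes together until they fuse. Each compartment of the cell uses its own set, and after fusion the complex is taken apart for reuse by the ATPase Nsf with its adaptor alpha-SNAP (encoded by Napa). Stx2 is a syntaxin of the plasma membrane, found in many cell types and acting there in exocytosis. Stx6 is a syntaxin of the trans-Golgi network and endosomes, and Vamp4 is a vesicle SNARE of the same route that forms a complex with Stx6 in traffic from endosomes back to the Golgi. In neurons, Vamp4 is also known from asynchronous transmitter release and from the bulk retrieval of vesicle membrane.

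Total counts ranged from 2396517 to 43224256 per library, with a median of 20494896. Library 39, from a saline-treated diestrus D2 rat, is the shallowest, and the others held at least 16118050. Adora2a, the adenosine receptor of D2-MSNs, had group means of 821 to 949 CPM (counts scaled to library size) in the D2 groups and 171 to 187 CPM in the D1 groups. Other defining genes of D1- and D2-MSNs could not be looked up, because symbols were paired with 1966 of the identifiers. CPM here are normalized by TMM over all 39 libraries and are not corrected for transcript length, so levels are compared between groups and not between genes.

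The level of Stx2 was higher in D2 than in D1 libraries. In saline-treated proestrus rats, the 5 D1 libraries held 3.51, 3.89, 4.40, 4.46 and 5.29 CPM of Stx2, and the 5 D2 libraries held 5.19, 5.91, 6.20, 6.58 and 10.4 CPM. In saline-treated diestrus rats, the D1 libraries held 4.37, 4.77, 5.32, 5.41 and 5.72 CPM and the D2 libraries 5.42, 5.75, 6.41, 7.91 and 10.2 CPM. At each stage the lowest D2 library lay just inside the D1 range and the other D2 libraries lay above it. In ketamine-treated proestrus rats, the D1 libraries held 4.90, 5.27, 5.49, 5.85 and 5.93 CPM and the 4 D2 libraries 4.65, 5.55, 6.96 and 9.07 CPM, so that the D2 range enclosed the D1 range. In ketamine-treated diestrus rats, the D1 libraries held 3.90, 4.89, 5.01, 5.55 and 5.81 CPM and the D2 libraries 6.26, 7.43, 8.87, 8.89 and 8.92 CPM, and these groups did not overlap. These CPM rest on 19 to 299 counts of Stx2 per library, the 19 being from library 39.

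**Figure D1:**
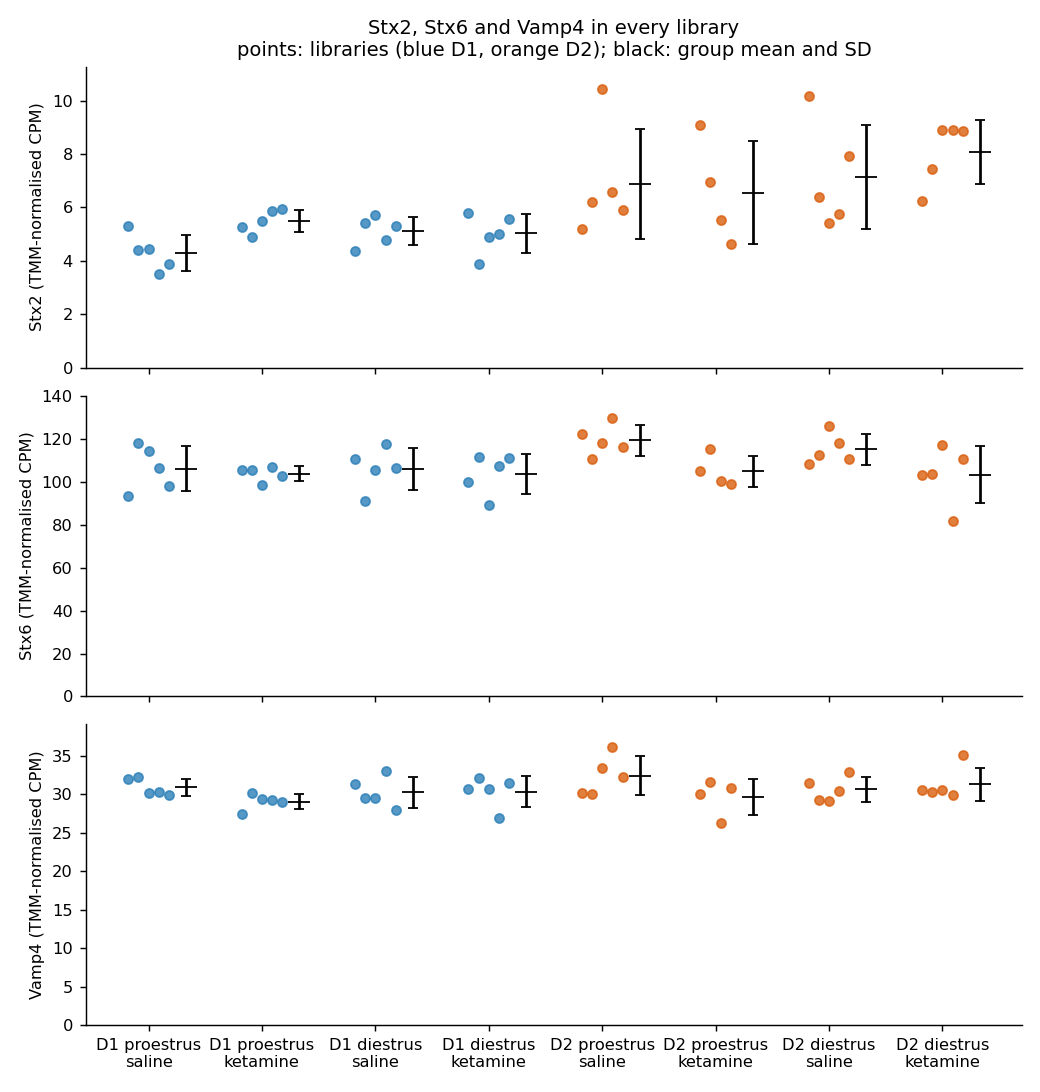
Level of Stx2, Stx6 and Vamp4 (TMM-normalised CPM, axes from 0) in each of the 39 libraries by group, with the group mean and SD in black. Stx2 is higher in the 4 D2 groups (means 6.56 to 8.07 CPM) than in the 4 D1 groups (4.31 to 5.49 CPM), Stx6 is highest in the saline-treated D2 groups, and the means of Vamp4 span 29.0 to 32.4 CPM.

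The order of the group means of Stx2 followed the Cre line, as all 4 D2 groups stood above all 4 D1 groups. The highest mean was 8.07 ± 1.20 CPM (SD, n = 5) in ketamine-treated diestrus D2 rats, followed by the diestrus saline, proestrus saline and proestrus ketamine D2 groups at 7.13 ± 1.95 CPM (SD, n = 5), 6.86 ± 2.06 CPM (SD, n = 5) and 6.56 ± 1.93 CPM (SD, n = 4). The D1 groups followed from 5.49 ± 0.423 CPM (SD, n = 5) in ketamine-treated proestrus rats down to 4.31 ± 0.671 CPM (SD, n = 5) in saline-treated proestrus rats, a ratio of 1.87 between the highest and the lowest group. No neighbouring pair in this order differed by more than the larger of their SDs. The spread within groups was 22.0% of the mean (pooled SD), against 9.87% from counting error alone.

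Over all saline-treated rats, Stx2 was at 7.00 ± 1.90 CPM (SD, n = 10) in D2 and 4.71 ± 0.714 CPM (SD, n = 10) in D1 libraries, with 8 of 10 D2 libraries above every D1 library. The fitted log2 fold change was 0.51 with a standard error (SE) of 0.138 and an adjusted p of 0.0107 (quasi-likelihood test of edgeR, adjusted over all genes tested by the method of Benjamini and Hochberg), past the threshold of 0.1 used throughout. In this comparison 26.6% of the 13689 genes tested were called, 13.6% with higher and 12.9% with lower values in D2, so a D2 bias of 2 of the 3 genes stands beside a background in which D2 bias is common. Over all ketamine-treated rats, Stx2 was at 7.40 ± 1.66 CPM (SD, n = 9) in D2 and 5.26 ± 0.615 CPM (SD, n = 10) in D1 libraries, with 7 of 9 D2 libraries above every D1 library. The log2 fold change was 0.44 (SE 0.122; edgeR, adjusted p = 0.0143), in a comparison that called 20.2% of 13850 genes, 9.18% with higher and 11.0% with lower values in D2. The ketamine- and saline-treated rats are separate animals, so no library enters both fits.

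Within single groups the difference was less certain. In ketamine-treated diestrus rats it reached a log2 fold change of 0.69 (SE 0.136; edgeR, adjusted p = 0.00385, with 14.7% of genes called, 6.76% higher and 7.97% lower in D2), and a 2-sided exact permutation test of the mean CPM gave 0.00794, the smallest p that 5 against 5 libraries allow. In saline-treated proestrus rats the log2 fold change was 0.48 (adjusted p = 0.247, edgeR, 5.67% of genes called, 2.92% higher and 2.75% lower in D2) with an exact permutation p of 0.0159, and with 1 library left out it ranged from 0.30 (without library 33, adjusted p = 0.789) to 0.63 (without library 5, adjusted p = 0.0764), the one of 10 such fits that called it. In ketamine-treated proestrus rats it was 0.15 (adjusted p = 0.779, edgeR, 5.70% of genes called, 2.83% higher and 2.86% lower) with an exact permutation p of 0.278, and 0.015 to 0.28 with 1 library left out, never called. In saline-treated diestrus rats the CPM of Stx2 were 1.39 times higher in D2 (exact permutation p = 0.0159), but the fitted log2 fold change was 0.06 (adjusted p = 0.945, edgeR, 3.51% of genes called, 1.49% higher and 2.02% lower). The fits hold 2 surrogate variables, which are axes of variation estimated from the counts themselves. With 1 library left out the value for saline-treated diestrus rats ranged from 0.0086 to 0.29 and was never called. Without surrogate variables it was 0.46 (adjusted p = 0.172) and that for saline-treated proestrus rats 0.67 (adjusted p = 0.0796). The difference between lines was not shown to depend on stage (line by stage, log2 difference -0.08, SE 0.165) or on ketamine (ketamine by line, -0.02, SE 0.172), both with an adjusted p of 1 from edgeR.

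The level of Stx2 moved with transcripts of glial and vascular cells. Of 26 marker genes listed for astrocytes, oligodendrocytes and their precursors, microglia, endothelial and mural cells, 7 could be looked up (Gja1, Gfap, Mog, Pdgfra, Aif1, Flt1 and Rgs5), and their summed level was 42.6 to 66.7 CPM in saline-treated D1 and 60.4 to 157 CPM in saline-treated D2 libraries. In ketamine-treated rats it was 48.1 to 63.3 CPM in D1 and 54.6 to 112 CPM in D2 libraries. Spearman's rho between Stx2 and this sum was 0.711 over the 39 libraries and 0.517 for deviations from group means, as a description of points that share library preparation and normalization. By comparison, 3 of the 7 markers were called higher in D2 in saline and 4 of 7 in ketamine. In ketamine-treated diestrus rats, where the difference of Stx2 was 0.69, 5 of 7 were called higher in D2 (edgeR), among them Gja1 (log2 fold change 0.66, adjusted p = 0.00207) and Flt1, the VEGF receptor of endothelial cells (1.02, adjusted p = 0.00272). In the other 3 comparisons within a stage and treatment, none of the 7 was called, and Gja1 was at 0.44 in proestrus saline, 0.07 in proestrus ketamine and -0.01 in diestrus saline, where Stx2 was at 0.48, 0.15 and 0.06. The markers differed among themselves there. The 7 ran from -0.29 (Gfap) to 0.82 (Flt1) in proestrus saline and from -0.30 (Aif1) to 0.53 (Rgs5) in proestrus ketamine. In diestrus saline they ran from -0.57 (Aif1) to 0.10 (Flt1). No marker had a group mean of 0 CPM, and the lowest was 0.745 CPM for Aif1. The sum exceeded that of every D1 library of the same treatment in 4 of 10 saline-treated and 8 of 9 ketamine-treated D2 libraries, and these were left out in an alternative chosen after seeing the data. In saline this left Stx2 at 6.06 ± 0.974 CPM (SD, n = 6) in D2, with a log2 fold change of 0.32 (SE 0.112; edgeR, adjusted p = 0.0845), which was still called. The 6 D2 libraries had sums of 60.4 to 66.3 CPM against 42.6 to 66.7 CPM in D1, so the lines were not matched. The rule left out D2 libraries only, by a sum that moved with Stx2, and so favoured a lower D2 mean. In ketamine it left 1 D2 library, with 4.65 CPM of Stx2, inside the D1 range, and a log2 fold change of -0.26 (SE 0.245; edgeR, adjusted p = 0.760) in a fit that takes this lone library to vary like the others. Of these 8 libraries, 4 had sums of only 64.0 to 67.4 CPM, just above the D1 maximum of 63.3 CPM. Among them, libraries 40, 22 and 8 held 8.87, 6.96 and 6.26 CPM of Stx2, above every ketamine-treated D1 library, and library 30 held 5.55 CPM. In bulk libraries, more mRNA of a gene per cell and more cells that carry it cannot be told apart, and the part of glial and vascular RNA in the difference was not tested beyond these values.

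Interneuron markers differed more between lines than the 3 genes did, and in the other direction from Stx2. Of 6 listed, Sst (somatostatin) and Nos1 (neuronal nitric oxide synthase) could be looked up. Group means of Sst were 382 to 447 CPM in D1 and 135 to 169 CPM in D2 libraries, with log2 fold changes of -1.54 in saline (adjusted p = 9.82e-05, edgeR) and -1.57 in ketamine (adjusted p = 1.56e-05, edgeR). Those of Nos1 were 29.6 to 36.9 CPM in D1 and 6.51 to 12.1 CPM in D2 libraries, with log2 fold changes of -1.67 and -1.80. Both genes were called lower in D2 in all 6 comparisons of lines, and the part of interneuron RNA in the differences of Stx2, Stx6 and Nsf was not tested.

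**Figure D2:**
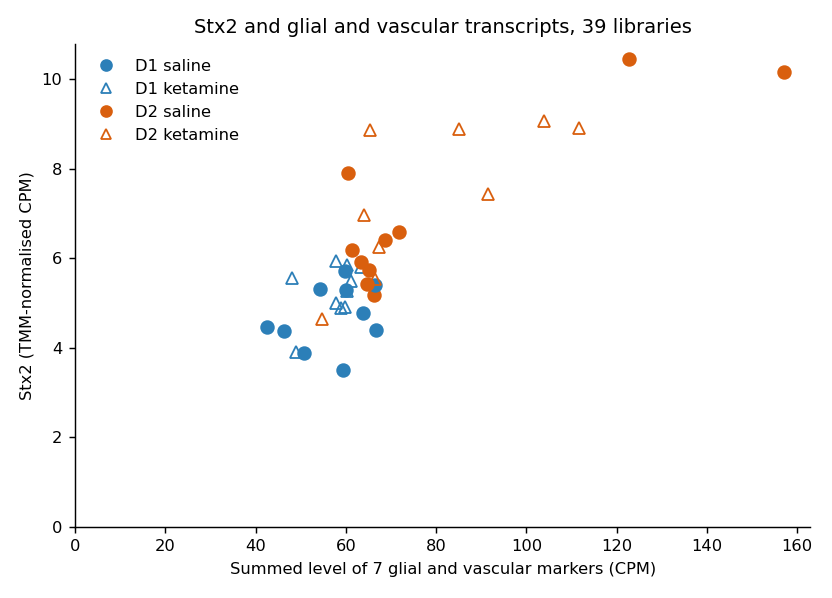
Level of Stx2 (vertical axis, TMM-normalised CPM) against the summed level of the 7 glial and vascular markers (horizontal axis, CPM) in each library, by line (blue D1, orange D2) and treatment (filled circles saline, open triangles ketamine). The 2 D2 libraries with the highest sums, 123 and 157 CPM, also hold the most Stx2, at 10.4 and 10.2 CPM.

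Of the genes that could be compared, the one whose level over all libraries was most like that of Stx2 is known as an astrocyte gene. Among 1593 genes with a paired symbol and enough counts, the highest Spearman's rho with Stx2 over the 39 libraries was 0.815 for Gja1, the gap junction protein connexin 43 of astrocytes, followed by 0.764 for Col11a2, a collagen chain, and 0.749 for Stk38, a protein kinase. For deviations from group means these were 0.497, 0.485 and 0.609. The genes were ranked by this rule and the values are a description.

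Stx6 showed a small D2 bias in saline-treated rats. In saline-treated proestrus rats, the D1 libraries held 93.3, 98.2, 106, 114 and 118 CPM of Stx6 and the D2 libraries 110, 116, 118, 122 and 130 CPM. In saline-treated diestrus rats, the D1 libraries held 90.9, 105, 106, 111 and 117 CPM and the D2 libraries 108, 111, 112, 118 and 126 CPM. The groups overlapped at both stages, and in each the lowest D2 library exceeded 3 of the 5 D1 libraries. In ketamine-treated proestrus rats, the D1 libraries held 98.4, 103, 105, 106 and 107 CPM and the D2 libraries 99.1, 100, 105 and 115 CPM. In ketamine-treated diestrus rats, the D1 libraries held 89.4, 99.8, 107, 111 and 111 CPM and the D2 libraries 81.8, 103, 104, 110 and 117 CPM. Under ketamine the D1 and D2 libraries covered much the same range at both stages. Counts of Stx6 ran from 266 in library 39 to 4947.

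The saline-treated D2 groups led the order of Stx6, with 119 ± 7.21 CPM (SD, n = 5) in proestrus and 115 ± 7.21 CPM (SD, n = 5) in diestrus. The other 6 groups had means from 103 to 106 CPM, and the ratio of the highest to the lowest group was 1.16. No neighbours in the order differed by more than the larger of their SDs. The spread within groups was 8.30% of the mean, against 2.32% from counting error.

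Over all saline-treated rats, Stx6 was at 117 ± 7.17 CPM (SD, n = 10) in D2 and 106 ± 9.51 CPM (SD, n = 10) in D1 libraries, and 5 of 10 D2 libraries lay above every D1 library. The log2 fold change was 0.13 (SE 0.0328; edgeR, adjusted p = 0.00884), beside a median absolute log2 change of 0.09 over all 13689 genes tested. With surrogate variables, this call was lost without library 39, where the log2 fold change was 0.08 and the adjusted p 0.153, and the number of genes called fell from 3637 to 2236. Without library 39 and without surrogate variables, a setting chosen after seeing the data, it was 0.14 and still called (adjusted p = 0.0477, edgeR). Over all ketamine-treated rats, Stx6 was at 104 ± 10.4 CPM in D2 (SD, n = 9) and 104 ± 6.61 CPM in D1 libraries (SD, n = 10), with a log2 fold change of -0.02 (adjusted p = 0.697, edgeR). Within single groups none of the 4 comparisons of lines called Stx6. Their log2 fold changes were 0.10 and 0.15 in saline-treated and 0.02 and 0.00 in ketamine-treated proestrus and diestrus rats, with adjusted p from 0.359 to 0.973 (edgeR). Without library 9 the value in saline-treated proestrus rats was 0.19 and just called (adjusted p = 0.0992).

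**Figure D3:**
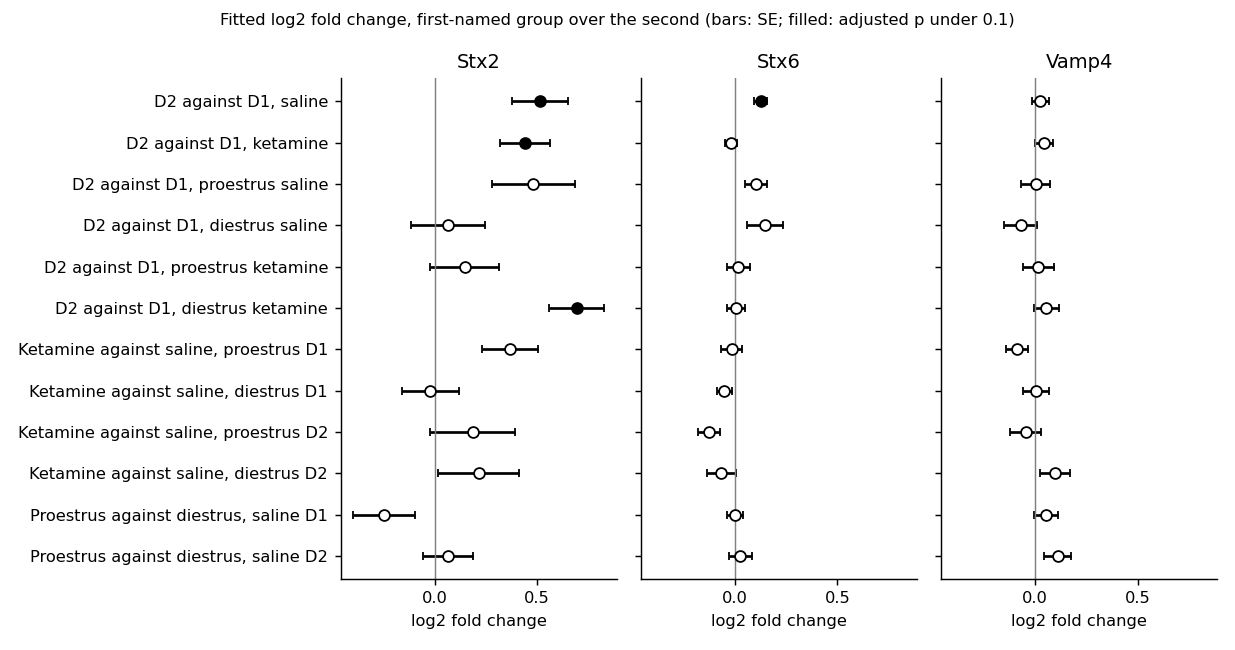
Fitted log2 fold change (horizontal axes, the group named first over the second) of Stx2, Stx6 and Vamp4 in 12 comparisons, with bars of 1 standard error and filled points where the adjusted p was under 0.1. The filled points are Stx2 between lines in saline (0.51), ketamine (0.44) and diestrus ketamine (0.69), and Stx6 between lines in saline (0.13).

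That Stx6 was called between lines under saline and not under ketamine does not show that ketamine changed the bias, and the test of that difference found none. The interaction of ketamine with line was -0.04 on the log2 scale (SE 0.0531; edgeR, adjusted p = 1), and without surrogate variables it was -0.14 (adjusted p = 0.715). No gene was called in this interaction of 14129 tested (0% called, 459 genes with an unadjusted p under 0.05 in edgeR, and 3 genes called by DESeq2). Unlike Stx2, Stx6 had a Spearman's rho of 0.183 with the glial and vascular sum, and -0.224 for deviations from group means. Its rho with Adora2a was 0.597, against 0.517 for Stx2. Adora2a itself differed between lines by a log2 fold change of 2.36 in saline and 2.15 in ketamine, so these rho include the difference between lines. None was computed with Adora2a for deviations from group means. Rgs9, a regulator of G protein signalling in MSNs, had group means of 345 and 370 CPM in the saline-treated D2 groups and 292 to 322 CPM in the other 6, with a log2 fold change between lines of 0.21 in saline (adjusted p = 0.00254, edgeR) and 0.02 in ketamine (adjusted p = 0.837, edgeR). Gad1, the other marker of both MSN types that could be looked up, went the other way. Its log2 fold change between lines was -0.09 in saline (adjusted p = 0.0550, edgeR), called lower in D2, and -0.03 in ketamine (adjusted p = 0.419, edgeR). Whether the level of MSN transcripts has a part in the values of Stx6 was not tested. Of the 1593 genes compared, those most like Stx6 were Zfp365, a zinc finger gene (rho 0.821), Gabra4, a subunit of the GABA-A receptor (rho 0.819), and Mmd (rho 0.811), and these held for deviations from group means at 0.812, 0.758 and 0.862.

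**Figure D4:**
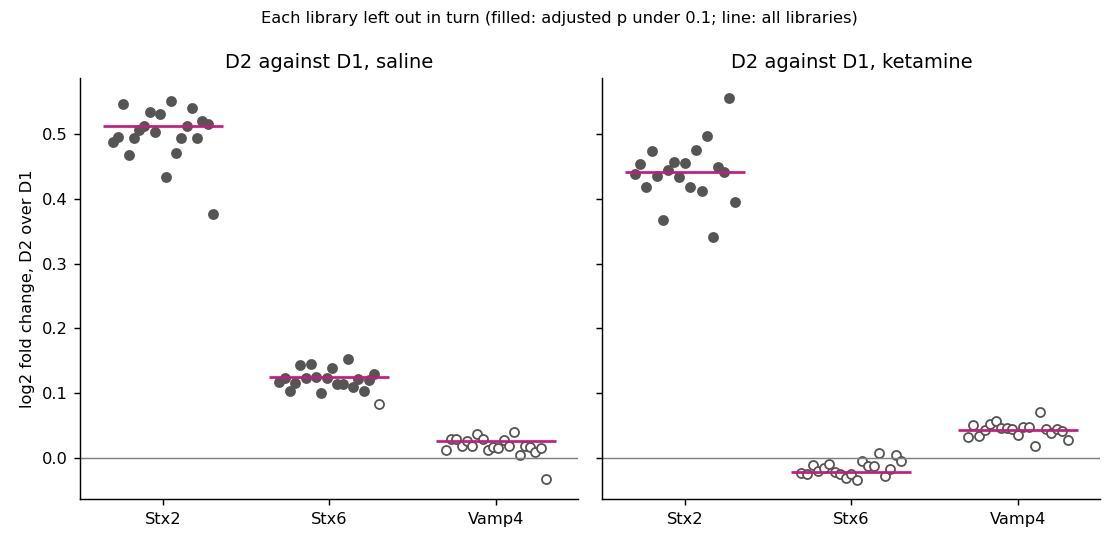
Log2 fold change of D2 over D1 (vertical axis) for each gene with each of the 20 saline (left) or 19 ketamine (right) libraries left out in turn, filled where the adjusted p was under 0.1, with a line at the value from all libraries. Stx2 stays filled in each case, from 0.38 to 0.55 in saline and from 0.34 to 0.56 in ketamine, and the one open point of Stx6 in saline, at 0.08, is the fit without library 39. In that fit Stx2 was only just called (adjusted p = 0.0988, edgeR).

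Vamp4 did not pass the threshold between lines in any comparison. Its level was 27.9 to 33.0 CPM in saline-treated D1 and 29.1 to 36.2 CPM in saline-treated D2 libraries, with medians of 30.3 and 30.9 CPM. In ketamine-treated rats it was 26.9 to 32.1 CPM in D1 and 26.3 to 35.1 CPM in D2 libraries. The lines overlapped almost entirely in both treatments. The means were 31.5 ± 2.20 CPM in D2 and 30.6 ± 1.54 CPM in D1 libraries under saline (SD, n = 10 each), with a log2 fold change of 0.03 (adjusted p = 0.987, edgeR), and the log2 fold change under ketamine was 0.04 (SE 0.0438; edgeR, adjusted p = 0.585). Over the 8 groups the means ran from 29.0 ± 0.979 CPM (SD, n = 5) in ketamine-treated proestrus D1 rats to 32.4 ± 2.54 CPM (SD, n = 5) in saline-treated proestrus D2 rats, a ratio of 1.12. Vamp4 thus had the narrowest range of the 3 genes, with a spread within groups of 6.20% against 4.32% from counting error. Its nearest genes across libraries, of the 1593 compared, were Cdc40 and Srsf3, which act in splicing (rho 0.629 and 0.559), and Rfc4, a subunit of replication factor C (rho 0.583).

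The 3 genes did not vary together across libraries to a like degree. Over the 39 libraries Spearman's rho was 0.0992 between Stx2 and Stx6, 0.135 between Stx2 and Vamp4 and 0.387 between Stx6 and Vamp4, the pair that shares a complex. For deviations from group means these were -0.152, 0.245 and 0.265, so Stx6 with Vamp4 was then about level with Stx2 with Vamp4. These values are descriptions.

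Ketamine was compared with saline within each line and stage, the question being whether repeated treatment leaves a lasting change in translation in each cell type. None of the 3 genes was called in any of the 4 comparisons, each of which called at most 3 genes by edgeR (0.00759% in proestrus D1, 0.0227% in diestrus D1, 0.00745% in proestrus D2 and 0% in diestrus D2, the last with 390 genes at an unadjusted p under 0.05 in edgeR). DESeq2 called 18, 10, 1 and 0 genes in the same order. The value of Stx2 in proestrus D1 rats was 5.49 CPM with ketamine and 4.31 CPM with saline, and 3 of 5 ketamine libraries lay above every saline library (log2 fold change 0.37, SE 0.137; edgeR, adjusted p = 0.867; exact permutation p = 0.0238). In the same comparison Gja1 was at 0.23 (unadjusted p = 0.0145, adjusted p = 0.867, edgeR), Flt1 at 0.24 and Mog at 0.19, while Gfap was at -0.07 and Rgs5 at -0.05, and none of them was called. In diestrus D1 rats it was 5.03 and 5.12 CPM. In D2 rats Stx2 was at 6.56 CPM with ketamine and 6.86 CPM with saline in proestrus, while the fitted log2 fold change had the other sign (0.19, SE 0.207; edgeR, adjusted p = 0.999). In diestrus D2 rats it was at 8.07 and 7.13 CPM, with a log2 fold change of 0.21 (SE 0.196; edgeR, adjusted p = 1), which ranged from 0.14 to 0.49 with 1 library left out, the highest without library 7, the one with the highest glial and vascular sum. Both differences of means were within the spread of each group.

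Stx6 had lower values with ketamine in D2 rats at both stages. In proestrus its mean was 105 ± 7.32 CPM (SD, n = 4) with ketamine and 119 CPM with saline, and 3 of 4 ketamine libraries lay below every saline library (log2 fold change -0.13, SE 0.0515; edgeR, adjusted p = 0.999; exact permutation p = 0.0317). In diestrus it was 103 ± 13.3 CPM (SD, n = 5) and 115 CPM, and 3 of 5 ketamine libraries lay below every saline library (log2 fold change -0.07, adjusted p = 1, edgeR; exact permutation p = 0.0952). In D1 rats the means of Stx6 with ketamine and saline were 104 and 106 CPM at both stages. Neither difference passed the adjustment over all genes. The saline libraries of D2 rats enter both this comparison and that of the lines, so a high level in them moves both.

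Vamp4 in proestrus D1 rats was at 29.0 CPM with ketamine and 30.9 ± 1.09 CPM (SD, n = 5) with saline, with 4 of 5 ketamine libraries below every saline library (log2 fold change -0.09, adjusted p = 0.922, edgeR; exact permutation p = 0.0159). The log2 fold changes in the other groups were 0.00 in diestrus D1, -0.05 in proestrus D2 and 0.10 in diestrus D2 rats. The interaction of ketamine with stage for Vamp4 was -0.13 (SE 0.0556, unadjusted p = 0.0225, adjusted p = 1, edgeR), where none of 14129 genes was called (0% called, 575 at an unadjusted p under 0.05 in edgeR, 2 called by DESeq2). Of the 30 exact permutation tests run on single pairs of groups for the 3 genes, 7 gave a p under 0.05, and 4 of these were for Stx2. These tests share groups and were not run on other genes, so their share over all genes is not known. In edgeR, 1615 of 13292 (diestrus saline) to 3116 of 13358 genes (diestrus ketamine) had an unadjusted p under 0.05 between lines. For ketamine these were 364 of 13214 (diestrus D1) to 727 of 13183 genes (proestrus D1).

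Proestrus was compared with diestrus in saline-treated rats, to see whether the cycle alone moves these transcripts. No gene was called in D1 or in D2 rats (0% each, with 631 and 646 genes at an unadjusted p under 0.05 in edgeR, and 11 and 0 called by DESeq2), and the 3 genes were not among them. Stx2 in D1 rats was at 4.31 CPM in proestrus and 5.12 ± 0.540 CPM (SD, n = 5) in diestrus (log2 fold change -0.25, SE 0.149; edgeR, adjusted p = 0.975; exact permutation p = 0.0794). It ranged from -0.42 without library 1 to -0.15 without library 25 and was never called. The other 5 values were at most 0.11 in size on the log2 scale. The interaction of line with stage called no gene of 14129 (0%, 442 at an unadjusted p under 0.05 in edgeR, 1 called by DESeq2), and its values were 0.01 for Stx6 and 0.02 for Vamp4.

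Other SNAREs and the proteins that act on them were read from lists of 38 SNARE genes, 24 regulators and 12 genes of traffic from endosomes. Of the SNAREs, 6 could be looked up and tested, the 3 genes above with Stx8, a syntaxin of late endosomes, Snap29, which joins several fusion steps, and Gosr2 of the Golgi. Stx8 had log2 fold changes between lines of 0.08 in saline and -0.01 in ketamine, Snap29 of -0.04 and -0.03 and Gosr2 of -0.03 and -0.02, and none of them was called. The partners of Stx6 and Vamp4 in their complex, Stx16 and Vti1a, were not looked up.

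Of the regulators, 5 could be looked up, and the one called in both treatments pointed the other way from Stx2. Nsf, the ATPase that recycles SNAREs, had a log2 fold change of -0.11 in saline (SE 0.0332; edgeR, adjusted p = 0.0179) and -0.18 in ketamine (SE 0.0358; edgeR, adjusted p = 0.000777), so it was lower in D2. In ketamine-treated diestrus rats 3 of the 5 were lower in D2, namely Nsf (-0.23, adjusted p = 0.00243), Napa (-0.12, adjusted p = 0.0579) and Stxbp5l, a tomosyn that binds syntaxins (-0.34, adjusted p = 0.0852), where 7.97% of all genes were called lower. Cplx2, a complexin that binds the assembled complex, was higher in D2 in ketamine-treated proestrus rats (0.16, adjusted p = 0.0945, edgeR), where 2.83% of genes were called higher. The calls of Nsf in all ketamine-treated and in ketamine-treated diestrus rats held without surrogate variables, with blocks of library numbers and with any 1 library left out, while the others did not. In the setting that left 1 ketamine-treated D2 library, which takes its spread from the other libraries, Nsf was at -0.055 and not called (adjusted p = 0.776, edgeR). The same setting in saline, with 6 D2 libraries left, had Nsf at -0.12 and called (adjusted p = 0.0177, edgeR). Without surrogate variables the log2 fold changes of Napa (-0.12, adjusted p = 0.517) and Stxbp5l (-0.33, adjusted p = 0.633) hardly moved though their calls were lost, while that of Cplx2 fell to 0.05 (adjusted p = 0.965), and with blocks of library numbers the value of Cplx2 changed sign to -0.018. Leaving out 1 library at a time ended the call in 6 of 10 fits for Napa, 5 of 10 for Stxbp5l and 8 of 9 for Cplx2, and the call of Nsf in saline was lost in 1 of 20 fits (without library 17, adjusted p = 0.150). That call was also lost without surrogate variables, just past the threshold, and with blocks (adjusted p = 0.110), at a log2 fold change of -0.12 in both. Stxbp2 was not called in any comparison of lines. The 4 genes of traffic from endosomes that could be looked up, Gcc2, Vps26c, Vps29 and Vps52, were not called in any of the 6 comparisons of lines, and their median log2 fold change was 0.03 in saline and -0.02 in ketamine.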

How the data were processed

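The authors trimmed the reads with fastp (0.23.4), checked them with FastQC (0.12.1), quantified transcripts of mRatBN7.2 with Salmon (1.10.2), correcting for sequence and GC bias, and summed them per gene with tximport. The authors deposited the expected counts of 23978 genes as whole numbers, without normalization, for 39 IP libraries of 2396517 to 43224256 counts each. One ketamine-treated proestrus D2 library had been excluded by the authors. No pair of libraries was identical.

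From these counts, genes were filtered with filterByExpr (minimum count 10) and normalized by TMM, separately for each comparison. They were tested in R 4.3.3 with edgeR 4.0.16 (quasi-likelihood test, robust) and 2 surrogate variables from sva 3.50.0, with Benjamini-Hochberg adjustment over all genes tested and a threshold of 0.1. Cycle stage was a covariate in the comparisons of lines over both stages. The study used DESeq2 (1.42.1) with surrogate variables, and DESeq2 1.42.0 was an alternative here. Standard errors are the log2 fold change over the root of the test statistic. Where the variance fitted with the surrogate variables falls below counting error in a library, edgeR by default raises p to that of a Poisson test. For Vamp4 between lines in saline this raised the unadjusted p from 0.549 to 0.967, and a comparison made after seeing the data gave the same number of called genes, 3637, without that step. Single pairs of groups were also compared by 2-sided exact permutation tests of mean CPM, unadjusted. The steps were tested on simulated data.

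Each library is 1 rat. The labels give each library its own number and pair none, so libraries were treated as unpaired, with blocks of 8 consecutive numbers as an alternative. The labels do not tie libraries to litters. The 3 genes and the gene lists were chosen with earlier results of these data known, including the difference of Stx2 and Stx6 between lines in saline-treated rats, which is therefore not independent support. The rule for named genes was the 3 genes, the members of the SNARE, regulator and endosomal traffic lists that could be paired and tested, and the 3 genes most like each by Spearman's rho over the 39 libraries. Symbols came from the identifier columns of the study's tables for 1966 identifiers, and the rest were not looked up. One listed glial marker is not reported here and enters no sum. Coordinates and protein sequences are not used here. The spread between libraries pooled over groups exceeded counting error for each of the 3 genes, though not in every group, and counting error covers sampling of reads only.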

Additional observations from a re-analysis of the deposited data

Results flagged for a closer look

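Among 24 sets of CPM (3 genes in 8 groups), 3 held a library far from the rest by Dixon's test at its 95% level, a test that flags about 1 in 20 sets by chance.

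Stx2 in saline-treated proestrus D2 rats stood at 10.4 CPM in library 21, while the next library held 6.58 CPM. The same library had a summed level of glial and vascular markers of 123 CPM, the second highest of the 39, and the part of that level in the value of Stx2 was not tested. Vamp4 in ketamine-treated diestrus D1 rats stood at 26.9 CPM in library 28, below the next at 30.6 CPM. Vamp4 in ketamine-treated diestrus D2 rats stood at 35.1 CPM in library 40, above the next at 30.5 CPM.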

How the results depend on the processing

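The difference of Stx2 between lines in saline-treated, in ketamine-treated and in ketamine-treated diestrus rats kept its direction and its call without surrogate variables, with DESeq2, with DESeq2 size factors, without the filter, with blocks of 8 consecutive library numbers and in every fit that lacked 1 library. In saline-treated rats this difference was only just called without library 39 (log2 fold change 0.38, adjusted p = 0.0988, edgeR). Without the D2 libraries of high glial and vascular level it was kept in saline-treated rats, as was that of Nsf (-0.12), where Vamp4 was then at -0.0075 and 1989 rather than 3637 genes were called. In ketamine-treated rats, with 1 D2 library left and its spread taken from the others, Stx2 reversed to -0.26, Snap29 was at 0.067, Nsf was no longer called (-0.055) and 396 rather than 2795 genes were called. The labels pair no libraries, since each carries its own number, but each block of 8 numbers holds at most 1 library of each group. Within blocks, Stx2 was higher in the D2 library in 8 of 10 saline and 7 of 9 ketamine pairs. The cause of the changes below was not tested. Values below are log2 fold changes, and none with a changed sign was called under that setting. The setting without glia-rich libraries was chosen after seeing the data and did not match the lines in glial and vascular level.

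Without surrogate variables, Stx2 between lines in saline-treated proestrus rats was called (0.67). The sign then changed for Stx6 between lines in ketamine-treated rats (0.0014) and in its diestrus group (-0.0062), Vamp4 between lines in saline-treated diestrus rats (0.0041), Stx8 in ketamine-treated rats (0.020), and Stx2 with ketamine in proestrus D2 rats (-0.063) and with stage in D2 rats (-0.041). With blocks of library numbers the sign changed for Stx6 between lines in ketamine-treated rats (0.0045) and in its diestrus group (-0.010), Stx8 in ketamine-treated rats (0.014), Cplx2 in ketamine-treated proestrus rats (-0.018), Stx2 with ketamine in proestrus D2 rats (-0.10) and with stage in D2 rats (-0.033), and Vamp4 in the interaction of ketamine with line (-0.0014). Stx6 with stage in D1 rats was 0.00081 with DESeq2, 0.0011 with its size factors and 0.00075 without the filter, and Vamp4 between lines in saline-treated proestrus rats was -0.0046 without the filter.

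Counts of genes called between lines also moved. Without surrogate variables they were 1732 in ketamine-treated rats, 1076 against 467 in saline-treated diestrus, 447 against 760 in ketamine-treated proestrus and 611 against 1968 in ketamine-treated diestrus rats. With blocks of library numbers the last 3 were 1348, 394 and 671. For ketamine in proestrus D1 rats the count of 1 became 0 without surrogate variables, 18 with DESeq2, 5 without the filter and 0 with blocks. In diestrus D1 rats 3 became 0, 10 with DESeq2 and 0 with blocks. In proestrus D2 rats 1 became 0, 2 without the filter and 0 with blocks. The counts of 0 became 11 for stage in D1 rats with DESeq2, 1 for stage in D2 rats without the filter, and, with DESeq2, 3, 1 and 2 for the interactions of ketamine with line, line with stage and ketamine with stage.

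With 1 library left out at a time, Stx6 between lines in saline-treated rats ranged from 0.084 to 0.15 and was lost without library 39. In saline-treated proestrus rats Stx2 ranged from 0.30 to 0.63 and was called without library 5, and Stx6 ranged from 0.038 to 0.19 and was called without library 9. Signs changed for Stx2 with ketamine in diestrus D1 (-0.13 to 0.054) and proestrus D2 rats (-0.052 to 0.29) and with stage in D2 rats (-0.022 to 0.16). The interactions were refitted without library 33 and without library 39 only, 2 of the 39 libraries, and there Stx2 in the interaction of ketamine with line was -0.025 and 0.033. They changed for Stx6 between lines in ketamine-treated rats (-0.034 to 0.0079), in their proestrus (-0.051 to 0.055) and diestrus groups (-0.019 to 0.060), with ketamine in diestrus D2 (-0.12 to 0.0015) and proestrus D1 rats (-0.081 to 0.015), and with stage in D1 (-0.034 to 0.030) and D2 rats (-0.0057 to 0.068). They changed for Vamp4 between lines in saline-treated rats (-0.032 to 0.041), saline-treated proestrus (-0.062 to 0.042) and ketamine-treated proestrus rats (-0.025 to 0.083), and with ketamine in diestrus D1 rats (-0.022 to 0.062). Between lines in ketamine-treated rats they changed for Stx8 (-0.028 to 0.013) and Gosr2 (-0.027 to 0.0049). Counts of genes called ranged from 2236 to 3812 in saline (without libraries 39 and 37), 278 to 1667 in saline-treated proestrus (without libraries 37 and 5), 235 to 977 in saline-treated diestrus (31 and 7) and 536 to 1243 in ketamine-treated proestrus rats (2 and 26), and for ketamine from 0 to 4 in proestrus D1, 0 to 5 in diestrus D1 and 0 to 1 in proestrus D2 rats, and for stage in D1 rats from 0 to 13. Stx2 rests on few counts, 19 in library 39, which limits how small a difference could be seen. The 24 group means moved by less than 1 SD with DESeq2 size factors.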
